A study of Mus musculus with 2 samples.

Results

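The cells described here are murine retinal pigment epithelium (RPE) cells with the highest combined level of 4 transcripts, Actb, Abhd2, Zfp691 and Gnb1, and are called score-high cells. They numbered 793 of the 5838 cells in the deposited files, 380 of 2844 in the first mouse (R1) and 413 of 2994 in the second (R2). The members were chosen by measured values. A cell could enter with at least 500 genes, at most 5% of its unique molecular identifiers (UMIs, each of which marks a captured transcript) from mitochondrially encoded genes, at least 5% from Ttr, the thyroxine and retinol carrier made in bulk by RPE, and at least 3000 UMIs in all. These criteria left 2537 cells in R1 and 2755 in R2. The score was the mean over the 4 genes of log2(UMIs per 10000 + 1), and the top 15% of each mouse were members. The remaining 2157 and 2342 cells, called the other cells, were the comparison.

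Both mice were male C57BL/6J animals with no treatment, at postnatal day 36 by the study and given as 4 to 5 weeks old in the sample labels. RPE sheets were released with trypsin from the eyecups of both eyes, pooled per mouse, broken into single cells, sorted for viable cells that took up calcein and carried into droplet-based sequencing. There was a single condition, so every comparison below lies within a mouse. The deposited counts held 26034378 UMIs in R1 and 29732969 in R2, and the median cell had 8379.5 UMIs in R1 and 7963 in R2.

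The RPE is a pigmented monolayer behind the photoreceptors that regenerates the visual chromophore, takes up shed outer segments and exchanges ions, water and metabolites between retina and choroid. Its cells are held together by a ring of junctional actin, and G protein-coupled receptors, whose signal is passed on by G protein alpha and beta-gamma subunits, act on its transport and pigmentation. Single RPE cells of a mouse share the same main programme and differ in RNA content and in the levels of individual transcripts.

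Of the 4 score genes, Actb encodes cytoplasmic beta-actin, Abhd2 a membrane lipid hydrolase, Zfp691 a zinc finger protein and Gnb1 a beta subunit of heterotrimeric G proteins. Their values chose the cells and are given as a description, with no test. Actb averaged 7.96 UMIs per 10000 in score-high and 2.65 in other cells of R1, and 14.1 against 5.33 in R2. Abhd2 averaged 3.54 against 1.03 in R1 and 5.56 against 1.69 in R2. Zfp691 averaged 1.02 against 0.121 in R1 and 2.24 against 0.350 in R2. The score genes were thus at higher levels in R2 than in R1 among other cells as well. Gnb1 averaged 3.87 against 1.45 in R1 and 5.46 against 1.88 in R2. All 4 transcripts were found in 115 score-high cells of R1 and 237 of R2, and 3 of them in 233 and 176 cells.

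Score-high cells are defined as the upper end of a score, and whether they form a separate type was not tested. Scores ran from 0 to 3.89 in R1 and from 0 to 3.80 in R2, with a limit of 1.495 in R1 and 2.155 in R2. Within 0.1 of the limit lay 214 cells of R1, of which 99 were members, and 175 cells of R2, of which 77 were members. The last cell inside the limit in R1 had 4.10 UMIs per 10000 of Actb, 1.02 of Abhd2, 0 of Zfp691 and 5.12 of Gnb1, and the first outside had 5.12, 4.09, 0 and 1.02 in that order. In R2 the last cell inside had 8.95 of Actb, 2.98 of Abhd2, 1.49 of Zfp691 and 2.98 of Gnb1, and the first outside had 8.94, 8.94, 0 and 2.98. At this depth, 1 UMI more or less of a score gene decided the membership of such cells.

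Correlations among the 4 genes from cell to cell were low. After every cell was thinned at random to 3000 UMIs, Pearson's r between pairs of score genes lay between 0.05 and 0.13 across 2537 cells of R1 and between 0.06 and 0.24 across 2755 cells of R2. These cells share a library within each mouse, and most hold 0 or a few UMIs of each gene. Cells were also chosen by 3 of the genes, and the level of the fourth is given as a description, since all 4 belong to the rule. Zfp691 was then 3.05 times as high in the chosen cells of R1 as in the others (0.561 against 0.184 UMIs per 10000) and 2.61 times in R2 (1.36 against 0.522). For Actb the ratio was 1.74 in R1 and 1.95 in R2, for Abhd2 it was 1.80 and 1.94, and for Gnb1 1.68 and 1.49. These ratios were smaller than in the cells that all 4 genes had chosen. The chosen cells were also shallower, with medians of 6697 to 6987.5 UMIs against 9414 to 9495 in R1 and of 4593 to 5115 against 9883.5 to 9993.5 in R2. Among the other cells of R2, Actb was at 9.43 UMIs per 10000 in cells of 3000 to 5000 UMIs, 5.86 in cells of 5000 to 10000 and 3.02 in deeper cells, although all were thinned alike. Abhd2 there was at 2.44, 1.75 and 1.22, and Zfp691 at 0.612, 0.424 and 0.183, while Gnb1, at 2.15, 2.33 and 1.52, fell only in the deepest cells. In R1 no such order was seen for Actb (3.13, 2.42 and 2.62). The part of depth in the ratios of the left-out genes was not tested.

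Score-high cells held fewer UMIs than other cells. Their median total was 6766.5 UMIs against 9485 in R1 and 4794 against 9968 in R2. When the cells of a mouse were split into deciles (10 equal groups) by total UMIs, 26.8% of the shallowest decile of R1 were score-high (68 of 254 cells, 95% exact Clopper-Pearson interval 21.4% to 32.7%) and 8.27% of the deepest (21 of 254, 5.19% to 12.4%). In R2 the share was 29.3% in the shallowest decile (81 of 276, 24.0% to 35.1%). It was 0 in both of the deepest deciles of R2, where 0 of 276 cells allow a share of up to 1.09% by the limit of 3 counts and up to 1.33% by the exact interval. Score-high cells were thus rarer among deeper cells in both mice, more steeply in R2. In R1 the share lay between 8.27% and 12.6% from the fifth decile on, with no further steady fall. For this reason all levels below come from cells thinned to 3000 UMIs. Values by band of depth, and with members chosen within deciles of depth, are given for the called genes in a later paragraph.

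**Figure D1:**
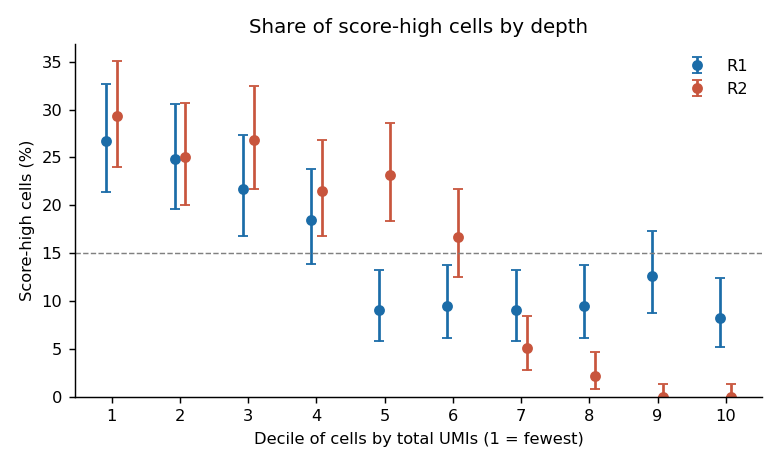
Share of score-high cells (%, vertical axis) in each decile of cells by total UMIs (horizontal axis) for R1 and R2, with exact 95% Clopper-Pearson intervals as bars and the 15% of the choice as a dashed line. The share falls from 26.8% to 8.27% in R1 and from 29.3% to 0% in R2.

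At equal depth the broad composition of the cells was close. Score-high and other cells of R1 both had a median of 1152 genes per thinned cell, and those of R2 had 995 and 1082, against 1864 and 2273 (R1) and 1266 and 2098 (R2) before thinning. Ttr took a median of 10.9% of the thinned UMIs in score-high and 11.3% in other cells of R1, and 13.1% and 13.0% in R2. Mitochondrially encoded transcripts took 1.53% against 1.23% in R1 but 1.20% against 1.27% in R2, so the direction differed between the mice. A doublet score that compared cells with artificial pairs marked 24 score-high cells (6.32%) and 77 other cells (3.57%) of R1, and 0 score-high and 110 other cells (4.70%) of R2. No cell barcode of a score-high cell in R1 was also a score-high barcode in R2, while 11 barcodes occurred in both mice among all cells that met the criteria.

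The RPE label held for these cells. Rpe65, the retinoid isomerase of the visual cycle, was at 46.4 UMIs per 10000 in score-high and 47.5 in other cells of R1, and at 50.6 and 50.2 in R2. Rlbp1, a retinaldehyde carrier, was at 40.6 and 39.7 in R1 and at 43.4 and 42.3 in R2. Lrat, which esterifies retinol, was at 15.6 and 13.7 in R1 and at 15.5 and 14.6 in R2. All 3 differed little between score-high and other cells. Rgr, the most abundant of the RPE markers, was at 167 and 196 in R1 but at 250 and 229 in R2, so its direction differed between the mice. Best1, a chloride channel gene often used to mark RPE, was close to 0 in both kinds of cells, with at most 0.00877 UMIs per 10000. Of the 7 RPE markers tested, 0 were called in either direction by edgeR (0 also at an unadjusted p under 0.05), against 9 of all 9899 genes tested (0.0909%). With so few calls in all, this count is near the background and not particular to the markers. Their median log2 fold change was -0.03, against 0.00 over all genes tested.

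UMIs summed over score-high and over other cells of each mouse gave 4 sums, which were compared with edgeR's quasi-likelihood test with the mouse as a block. Among 9899 genes tested, 9 (0.0909%) passed an adjusted p of 0.05, and all 9 were higher in score-high cells. None was lower (0%), although 129 genes had a lower level at an unadjusted p under 0.05, against 166 with a higher one. DESeq2 called 1 gene, Bhlhe41, and 0 lower. The 2 sums of each of 2 mice leave a single residual degree of freedom, so the spread behind these p-values was borrowed across genes, and without the mouse as a block 0 genes were called. Of the 9, Bhlhe41 and Alkbh5 met the rule set for naming genes, and the other 7 are named because they were called, after their values had been seen. With members chosen within deciles of depth, Spry2, Wtap, Lrrc8a, Gpx3 and Fn3krp did not pass.

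**Figure D2:**
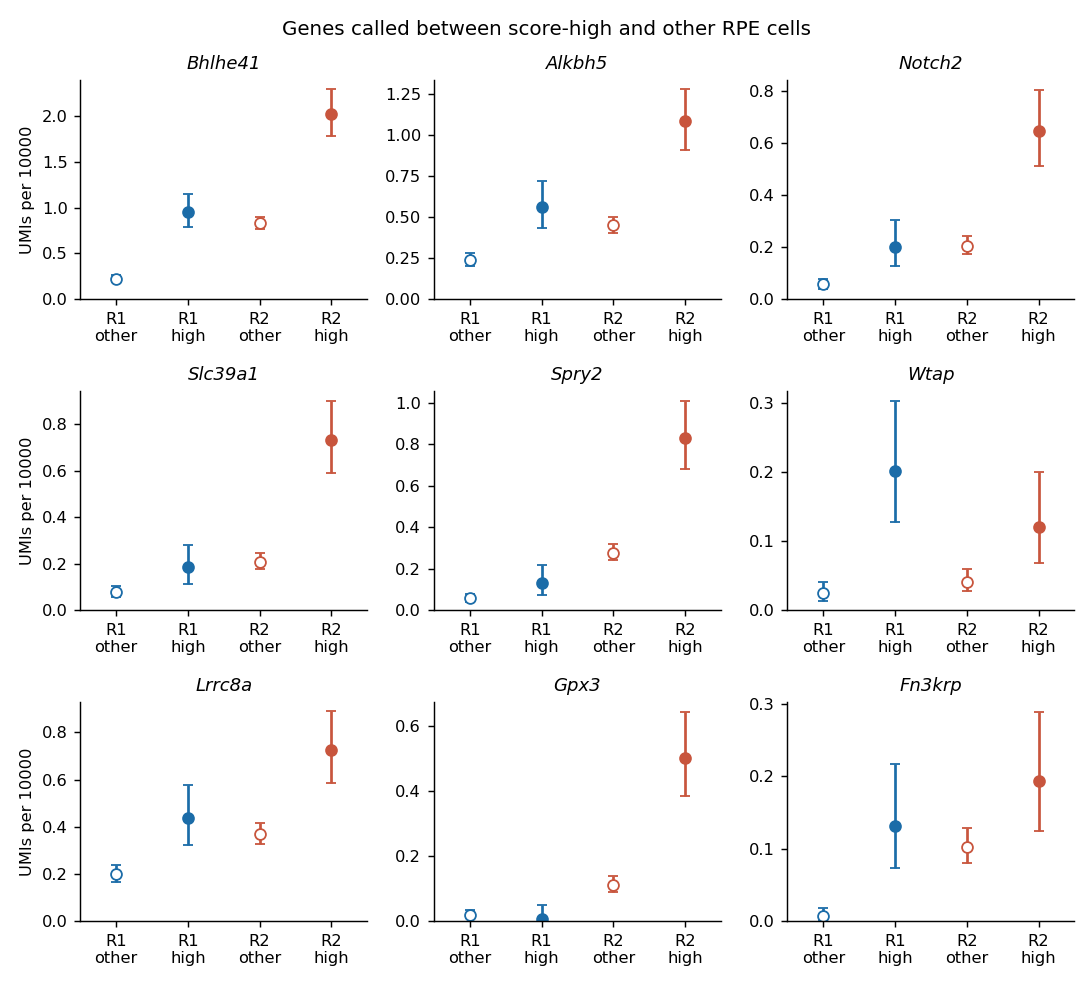
Level (UMIs per 10000, vertical axis) of the 9 called genes in other (open) and score-high (filled) cells of R1 (blue) and R2 (red), from cells thinned to 3000 UMIs, with exact 95% Poisson intervals that cover counting error only. Score-high cells are above other cells of the same mouse for 8 of the 9 genes in both mice, and Gpx3 is above in R2 alone.

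Bhlhe41 differed most clearly. It encodes DEC2, a basic helix-loop-helix repressor that binds E-box sequences and feeds back on the circadian clock. Its level was 0.956 UMIs per 10000 in score-high and 0.219 in other cells of R1 (109 and 142 UMIs), and 2.03 and 0.830 in R2 (251 and 583 UMIs). Both score-high sums lay above both sums of other cells, although the other cells of R2 were close to the score-high cells of R1. The ratio of score-high to other cells was 4.36 in R1 (95% counting interval 3.36 to 5.63) and 2.44 in R2 (2.10 to 2.84). In edgeR the log2 fold change was 1.63 (SE 0.17, adjusted p = 8.60e-17). The gene lies on chromosome 6 at 145858243 to 145865558 of GRCm38, on the minus strand.

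Since Bhlhe41 is both a called gene and an E-box binding factor, the stretches before the gene's first annotated base are shown for the only 2 of the genes in which the E-box letters CACGTG were found, Bhlhe41 itself and Lrrc8a. Capitals mark CACGTG and, in Lrrc8a, the cyclic AMP response element letters TGACGTCA. Sequences are RefSeq's, in GRCm38.p6, and run 5′ to 3′ on the strand of the gene, from chr6:145865559-145865670 (minus) and chr2:30237519-30237714 (plus).
Bhlhe41: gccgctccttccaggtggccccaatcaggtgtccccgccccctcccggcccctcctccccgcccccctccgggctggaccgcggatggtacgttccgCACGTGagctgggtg
Lrrc8a: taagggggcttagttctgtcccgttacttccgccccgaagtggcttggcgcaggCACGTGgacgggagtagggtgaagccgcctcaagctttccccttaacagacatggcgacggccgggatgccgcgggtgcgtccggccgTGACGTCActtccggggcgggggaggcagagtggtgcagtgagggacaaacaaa

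The E-box began 15 bases before the Bhlhe41 gene as annotated by GENCODE and 142 bases before Lrrc8a, where the TGACGTCA began 54 bases before the gene. Counted from the RefSeq start, which differs, the E-box began at -153 in Bhlhe41 and at -196 in Lrrc8a. Promoters, taken as 250 bases before to 50 after the RefSeq start and searched on both strands, were found for 12 of the 13 score and called genes, Actb being the one without. The E-box was in 2 of these 12 genes and in 7.15% of all 32851 promoters, and TGACGTCA in 1 and in 1.79%. The CCAAT box, CCAAT, was in 8 of 12 and in 37.4% of all, and the GC box, GGGCGG, in 11 of 12 and in 35.7%. A gene counted when any of its promoters held the letters, whereas the shares are over single promoters. Those shares also take in genes whether or not RPE expresses them. The measures are thus unlike, and no enrichment was tested or is read from them. The E-box and TGACGTCA matches in Lrrc8a did not overlap. Such matches describe the letters in these windows and say nothing of binding.

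Alkbh5, which removes N6-methyladenosine marks from RNA, was at 0.561 UMIs per 10000 in score-high and 0.240 in other cells of R1 (64 and 155 UMIs). In R2 it was at 1.08 and 0.448 (134 and 315 UMIs). The ratios were alike, 2.34 in R1 (1.72 to 3.16) and 2.41 in R2 (1.96 to 2.96). The log2 fold change was 1.25 (SE 0.20, edgeR adjusted p = 3.78e-06), and the gene lies on chromosome 11 at 60536381 to 60558512, plus strand. Wtap, a subunit of the complex that writes the same mark, was at 0.202 and 0.0247 in R1 (23 and 16 UMIs) and at 0.121 and 0.0413 in R2 (15 and 29 UMIs). It was higher in score-high cells of both mice (log2 fold change 2.26, SE 0.47, edgeR adjusted p = 0.00320), from few UMIs. Of other genes of this mark, chosen after these calls were seen, the writer Mettl3 was at 0.202 and 0.102 in R1 but 0.0969 and 0.107 in R2, and the demethylase Fto at 0.395 and 0.334 in R1 but 0.186 and 0.266 in R2. Neither passed the test, and the direction of both differed between the mice.

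Notch2, a receptor for Delta and Jagged ligands, was at 0.202 UMIs per 10000 in score-high and 0.0572 in other cells of R1 (23 and 37 UMIs) and at 0.646 and 0.205 in R2 (80 and 144 UMIs). The difference went the same way in both mice, with a log2 fold change of 1.72 (SE 0.29, edgeR adjusted p = 9.08e-06). Spry2, a feedback inhibitor of receptor tyrosine kinase signalling, was at 0.132 and 0.0572 in R1 (15 and 37 UMIs) and at 0.831 and 0.278 in R2 (103 and 195 UMIs). The other cells of R2 lay above the score-high cells of R1, so the levels overlapped between mice while the order within each mouse was the same (log2 fold change 1.49, SE 0.28, edgeR adjusted p = 0.000146). Slc39a1, the zinc importer ZIP1, was at 0.184 and 0.0788 in R1 (21 and 51 UMIs) and at 0.734 and 0.208 in R2 (91 and 146 UMIs), again with R2 above R1 (log2 fold change 1.62, SE 0.28, edgeR adjusted p = 1.50e-05). Of relatives of Notch2 and Spry2, 3 are given here, and none passed the test. Notch1, chosen after the calls were seen, was at 0.246 and 0.206 in R1 and at 0.194 and 0.195 in R2, and Spry1 and Spry4, from the list of ERK feedback genes, had log2 fold changes of 0.01 and -0.06.

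Lrrc8a, the essential subunit of the volume-regulated anion channel, was at 0.439 UMIs per 10000 in score-high and 0.201 in other cells of R1 (50 and 130 UMIs) and at 0.726 and 0.370 in R2 (90 and 260 UMIs). This difference was of like size in both mice (log2 fold change 1.04, SE 0.22, edgeR adjusted p = 0.00529), while its partner subunit Lrrc8d, chosen after the calls were seen, was at 0.202 and 0.185 in R1 and at 0.161 and 0.184 in R2. Fn3krp, an enzyme that removes sugar adducts from proteins, rested on few UMIs, 15 and 5 in R1 and 24 and 72 in R2. It was at 0.132 and 0.00773 in R1 and at 0.194 and 0.102 in R2 (log2 fold change 1.85, SE 0.44, edgeR adjusted p = 0.0279), so most of its difference came from R1. Gpx3, a secreted glutathione peroxidase, had 1 UMI in score-high and 13 in other cells of R1 (0.00877 and 0.0201 UMIs per 10000), and 62 and 79 UMIs in R2 (0.500 and 0.112). Its call (log2 fold change 1.74, SE 0.41, edgeR adjusted p = 0.0276) therefore rested on R2 alone, and the R1 ratio of 0.437 had a counting interval of 0.0103 to 2.91.

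Levels of the called genes along the score are given by decile, as a description. The genes were called between cells chosen on this same score. A high level in its top decile thus follows in part from that choice and is no separate evidence. In R1, Bhlhe41 stayed between 0.171 and 0.328 UMIs per 10000 over the lower 9 deciles of the score and stood at 1.21 in the top decile. In R2 it was at 0.435 in the lowest decile and 0.303 in the second, then rose through 0.628 in the fifth and 1.15 in the seventh. From the eighth to the top decile it was at 1.84, 1.82 and 2.07. Notch2 showed the same contrast, with at most 0.0922 in the lower 9 deciles and 0.276 in the top decile of R1, and 0.206 in the sixth, 0.435 in the eighth and 0.749 in the top decile of R2. For Bhlhe41 and Notch2 in R1 only the top decile was raised, which the choice of the genes favours. In R2 the level was already higher in the deciles below the top. Fn3krp in R1 was at no more than 0.0262 in the lower 9 deciles and at 0.184 in the top decile, and Lrrc8a at 0.131 to 0.303 and then 0.499. Some called genes did not share this pattern. Alkbh5 in R1 was at 0.407, 0.316, 0.341 and 0.564 in the 4 upper deciles, with no step. In R2 the top decile lay below the one before it for Spry2 (0.628 after 0.909), Wtap (0.0966 after 0.170), Fn3krp (0.169 after 0.315) and Gpx3 (0.435 after 0.485). No test of these differences was made.

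**Figure D3:**
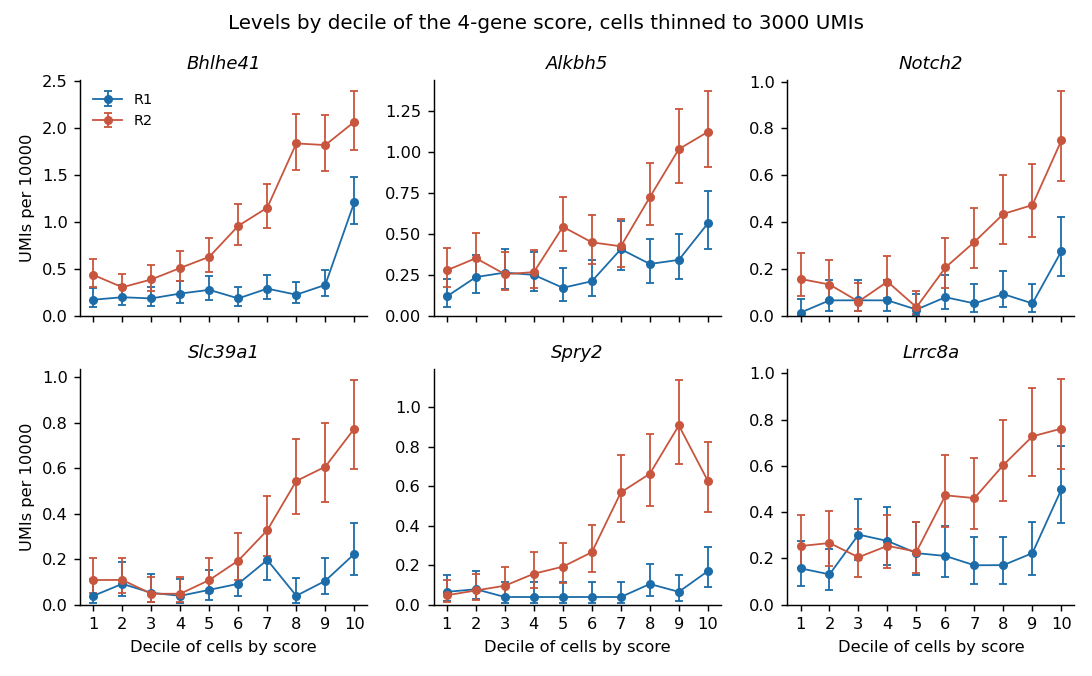
Level (UMIs per 10000, vertical axis) of 6 called genes by decile of cells ranked on the 4-gene score (horizontal axis) in R1 and R2, from cells thinned to 3000 UMIs, with exact 95% Poisson intervals. In R1 Bhlhe41 reaches 1.21 in the top decile alone, and in R2 it climbs over the upper deciles to 2.07. The genes were called between cells chosen on the same score, so a high top decile is no separate evidence.

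Levels of Bhlhe41 by the UMIs of each score gene taken alone are given as a description. Among thinned cells of R1 it was at 0.206 UMIs per 10000 in the 1135 cells without Actb, at 0.306 and 0.388 in cells with 1 and 2 UMIs of Actb, and at 0.846 in the 268 cells with 3 or more. In R2 the levels in the same order were 0.422, 0.689, 1.10 and 1.74, from 798 cells without and 866 cells with 3 or more UMIs of Actb. Bhlhe41 was called between cells chosen on Actb and the other score genes. Its order along these genes thus follows in part from that choice and is no separate evidence. For Abhd2, Bhlhe41 was at 0.250 (R1) and 0.725 (R2) in cells without it, and at 1.06 (R1) and 1.45 (R2) in cells with 3 or more of its UMIs. For Zfp691, it was at 0.289 in cells without and 0.704 in cells with 1 UMI in R1, and at 0.891 and 1.46 in R2. In the 71 cells of R2 with 2 UMIs of Zfp691 it was at 2.44. For Gnb1, the levels were 0.263 (R1) and 0.778 (R2) without it, and 0.691 (R1) and 1.43 (R2) with 3 or more of its UMIs. These levels are a description across cells that share a library, and the total UMIs of the cells were not matched. From cell to cell the median r over 36 pairs of the 9 called genes was 0.02 in R1 and 0.05 in R2. Most cells hold 0 UMIs of each of these genes, which keeps r near 0, so no lack of a tie can be read from it.

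In R2 these genes fell with depth, as the share of score-high cells did, and all 9 were lower in deeper other cells. In other cells of R1 no such fall was seen for Notch2 (0.0446, 0.0645 and 0.0545 UMIs per 10000 from the shallowest to the deepest of 3 bands) or Slc39a1 (0.0780, 0.0721 and 0.0851). Some other called genes were lower in the deeper bands of R1 as well. These were Bhlhe41 (0.323, 0.205 and 0.201), Lrrc8a (0.268, 0.209 and 0.174) and, from few UMIs, Gpx3 (0.0334, 0.0190 and 0.0170). Among other cells of R2, Bhlhe41 was at 1.75 UMIs per 10000 in cells of 3000 to 5000 UMIs, 1.04 in cells of 5000 to 10000 and 0.260 in cells of 10000 and more, although every cell was thinned to the same depth. In score-high cells of R2 it was at 2.18, 1.96 and 1.19, with ratios of 1.25, 1.89 and 4.57. In R1 the ratios were 3.99, 5.13 and 2.23. The deepest band of R2 was not of like depth. Its 28 score-high cells, with 10 UMIs of Bhlhe41, had at most 15013 UMIs each, while its 1165 other cells reached 34617. Ratios in that band are thus not at like depth, and no widening is read from them. The shallow cells of R2 thus held much Bhlhe41 whether or not they were score-high. Alkbh5 had ratios of 3.21, 2.00 and 1.55 in R1 and of 1.17, 2.93 and 2.87 in R2. In the 104 score-high cells of R1 with 10000 UMIs and more, Notch2, Slc39a1 and Spry2 had 0 UMIs each, against 16, 25 and 15 UMIs in 979 other cells. A count of 0 in so few cells allows up to 3 UMIs, a level above that of the other cells, so no direction can be read there. In R2 the ratio in cells of 3000 to 5000 UMIs was 1.41 for Notch2, 1.63 for Slc39a1, 1.50 for Spry2 and 0.883 for Fn3krp. When the top 15% were chosen within each decile of depth, which gave median totals of 9122 against 9139 in R1 and 8780.5 against 8777 in R2, edgeR still called 4 of the 9 genes higher. These were Bhlhe41 (log2 fold change 1.04), Notch2 (1.28), Slc39a1 (1.18) and Alkbh5 (0.88), while Spry2 (0.63), Wtap (1.53), Lrrc8a (0.54), Gpx3 (0.70) and Fn3krp (0.89) did not pass. That choice also gave 3 lower genes, which are described in the closing section.

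**Figure D4:**
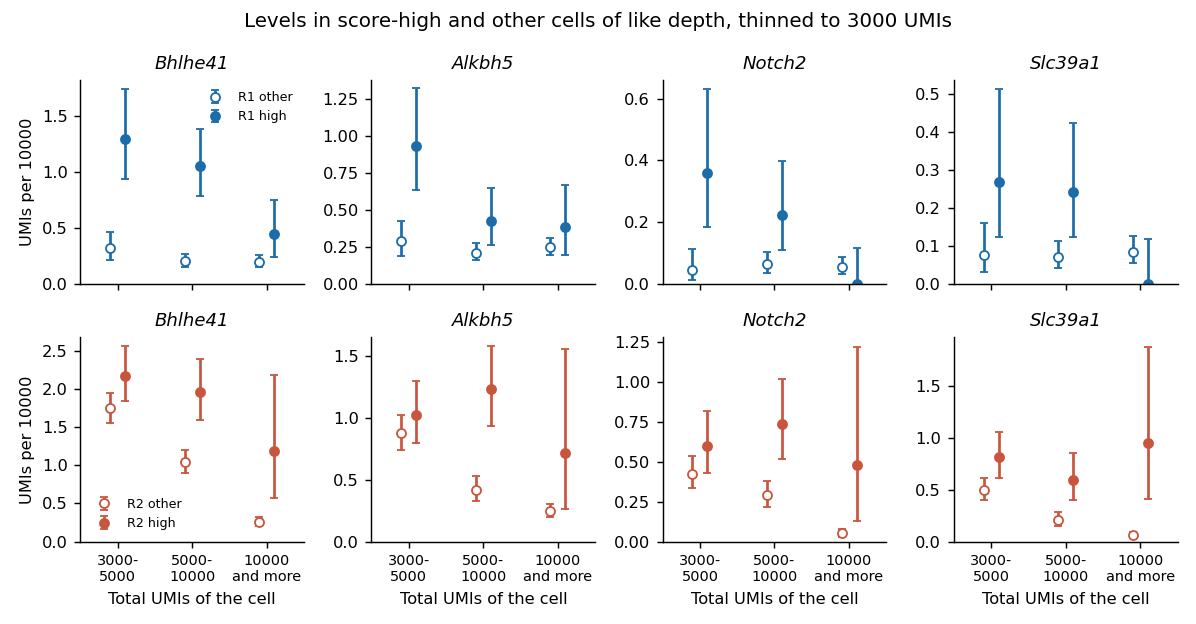
Level (UMIs per 10000, vertical axis) of Bhlhe41, Alkbh5, Notch2 and Slc39a1 in score-high (filled) and other (open) cells of R1 (top, blue) and R2 (bottom, red) by the total UMIs of the cell (horizontal axis), with exact 95% Poisson intervals. In cells of 3000 to 5000 UMIs of R2, Bhlhe41 was at 2.18 and 1.75, and in cells of 10000 and more at 1.19 and 0.260. In that last band of R2 the other cells reach 34617 UMIs and the score-high cells 15013, so their depths are not alike.

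None of the tested genes from the lists related to Actb, Gnb1 and Abhd2 was called. With 0.0909% of all genes called, a list of this size would rarely hold a call. Nothing particular to these families is therefore read from the counts. No list was made for the zinc finger family of Zfp691. Of 46 tested genes of the actin cytoskeleton, 0 were called (1 at an unadjusted p under 0.05), and their median log2 fold change was 0.03. The actin monomer binder Pfn1 was at 10.3 and 9.39 UMIs per 10000 in score-high and other cells of R1 and at 8.54 and 8.51 in R2. Cfl1, which severs actin filaments, was at 3.45 and 3.76 in R1 and at 4.01 and 3.71 in R2. Of 17 tested G protein genes 0 were called (0 at an unadjusted p under 0.05), with a median of -0.06. The beta subunit gene Gnb2 was at 3.74 and 3.83 in R1 and at 3.95 and 4.30 in R2. Of 20 tested genes of the ABHD family and endocannabinoid enzymes 0 were called (0 at an unadjusted p under 0.05), with a median of 0.02. Of 9 tested targets of serum response factor, a DNA-binding factor whose coactivators MRTF-A and MRTF-B bind actin monomers, 0 were called (1 at an unadjusted p under 0.05). Their median of 0.24 had no stable sign, being -0.03 with another draw of the thinning and -0.09 with the top 10% as members.

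A called gene was found in the lists of circadian clock and ERK feedback genes. Of 20 tested circadian clock genes, 1 was higher, Bhlhe41, and 0 were lower, against 9 of all 9899 genes tested (0.0909%). Their median log2 fold change was 0.15, and the sign differed between the mice (0.31 in R1 and -0.11 in R2). Its paralogue Bhlhe40 was at 0.763 and 0.770 UMIs per 10000 in R1 and at 0.678 and 0.751 in R2, and the clock output factor Dbp at 5.91 and 5.37 in R1 and at 5.14 and 5.45 in R2. No other clock gene passed the test. Of 16 tested genes of ERK feedback and FGF response, 1 was higher, Spry2, and 0 were lower, against the same background of 0.0909%. Their median of 0.04 combined 0.36 in R1 with -0.25 in R2. Dusp6, a phosphatase that ends ERK signalling, was at 1.89 and 1.84 in R1 and at 2.28 and 2.34 in R2.

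The study's own markers of its cluster C4 in R2, without the score genes, were 5 genes, of which 3 were called higher (Bhlhe41, Spry2 and Slc39a1), against 9 of all 9899 genes tested (0.0909%). Gsk3b, a serine/threonine kinase, was at 1.20 and 0.889 UMIs per 10000 in R1 and at 1.54 and 1.09 in R2 (edgeR unadjusted p = 0.0036). Pdpn, a membrane mucin, was at 4.33 and 4.21 in R1 and at 5.78 and 4.55 in R2. The study chose this list on these cells, so it is not independent evidence. Of its 49 markers of cluster C5 in R1, 0 were called (0 at an unadjusted p under 0.05), with a median of 0.03, and the same holds for their choice.

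Genes of the mature RPE gave no call, which with 0.0909% of all 9899 genes called, and 295 at an unadjusted p under 0.05, is near the background and not particular to these lists. Of the tested genes, 0 of 13 of the visual cycle and retinoid handling, 0 of 18 of outer segment phagocytosis, 0 of 17 of glycolysis, 0 of 16 of ion transport and 0 of 29 of the lysosome were called by edgeR, with medians between -0.08 and -0.01. At an unadjusted p under 0.05 these lists held 0, 1, 0, 0 and 2 genes. Melanogenesis genes had 0 calls of 17 (1 at an unadjusted p under 0.05) and a median of -0.10, and Dct, a melanin synthesis enzyme, was at 8.29 and 9.46 in R1 and at 6.13 and 6.52 in R2. Of 66 tested cytosolic ribosomal protein genes and 78 nuclear genes of oxidative phosphorylation 0 were called (2 and 1 at an unadjusted p under 0.05), with medians of 0.01 and -0.01. Epithelial junctions (0 of 22), endoplasmic reticulum chaperones (0 of 20), RPE identity factors (0 of 15) and metallothioneins (0 of 3) gave no call either, with medians of 0.05, -0.06, 0.03 and 0.00 and with 0, 0, 1 and 0 genes at an unadjusted p under 0.05.

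Early response genes, which tissue dissociation is known to induce, had 0 calls among 23 tested, 4 at an unadjusted p under 0.05 (against 295 of all 9899 genes tested) and a median of 0.25. Junb was at 0.211 and 0.0742 UMIs per 10000 in R1 but at 0.178 and 0.219 in R2. Fos was at 0.105 and 0.0464 in R1 and at 0.347 and 0.313 in R2, and Btg2 at 0.175 and 0.0695 in R1 and at 0.307 and 0.185 in R2. In R1 alone the median log2 ratio of the list was 0.48, and in R2 alone it was 0.09. Its part in the calls was not tested.

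Summed levels of markers of other cells ranged widely between cell types. Summed over 8 microglia or macrophage markers, score-high cells of R1 held 1.00 UMIs per 10000 against 0.0124 in other cells, and those of R2 held 0 against 0.0541. C1qb was the most abundant, at 0.228 in score-high cells of R1, and Cx3cr1 was at 0 throughout. UMIs of at least 3 of these markers were found in 2 score-high cells of R1 and 2 other cells of R2, and without these cells edgeR called the same 9 genes, with Bhlhe41 at a log2 fold change of 1.63. Endothelial, fibroblast and cone markers were at low levels, and their sums were higher in score-high than in other cells of both mice. The 6 endothelial markers summed to 0.325 in score-high cells of R1, 3.23 times their sum in its other cells, and to 0.210 and 0.127 in score-high and other cells of R2. Plvap, the most abundant, was at 0.281 and 0.0757 in R1 and at 0.137 and 0.0939 in R2 (edgeR unadjusted p = 0.000694, not called). The 6 fibroblast markers summed to 0.0263 and 0.0155 in R1 and to 0.242 and 0.185 in R2, with Lum and Pdgfra at 0. Dcn, the most abundant, had a log2 fold change of 0.95 (edgeR unadjusted p = 0.0473, not called). The 5 cone markers summed to 0.219 and 0.212 in R1 and to 0.274 and 0.216 in R2, led by Gnat2 and with Arr3 and Pde6h at 0. The part of these cells in the called genes was not tested. The 6 choroidal melanocyte markers summed to at most 1.01, led by Sox10 and with Pax3 and Mcoln3 at 0. Pericyte markers summed to 2.46 in score-high and 2.67 in other cells of R1 and to 2.78 and 2.70 in R2, most of it Acta2. Muller glia markers, whose most abundant gene Apoe is also made by RPE, summed to 252 and 281 in R1 and to 262 and 257 in R2. Red blood cell markers summed to at most 0.0943, with Alas2 at 0. Lymphocyte markers summed to at most 0.00155. Of 3 proliferation genes tested 0 were called (0 at an unadjusted p under 0.05), near the background of 0.0909% of all genes tested.

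Over 1125 genes with at least 1 UMI per 10000 in all 4 sums, the log2 ratios of score-high to other cells had a Pearson's r of -0.21 between R1 and R2. Genes are not independent replicates, and the genes of a mouse share the same cells and depth. The same sign was found for 466 of them (41.4%). Ratios past 0.5 on the log2 scale were found for 6 genes in R1, with Gm42418 higher and Dynlt3, Atp6ap2, Bcap31, Smpdl3a and Sucla2 lower, and for 0 genes in R2. Mitochondrially encoded transcripts summed to 176 UMIs per 10000 in score-high and 143 in other cells of R1 but to 130 and 144 in R2. Malat1, a long noncoding RNA kept in the nucleus, was at 197 and 151 in R1 but at 155 and 171 in R2. Of 10 tested mitochondrially encoded genes and 17 tested nuclear-retained RNAs and intron-retaining transcripts, 0 were called (0 and 0 at an unadjusted p under 0.05). This is near the background of 9 of all 9899 genes tested (0.0909%). For most abundant transcripts the sign thus differed between the mice, at small ratios.

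**Figure D5:**
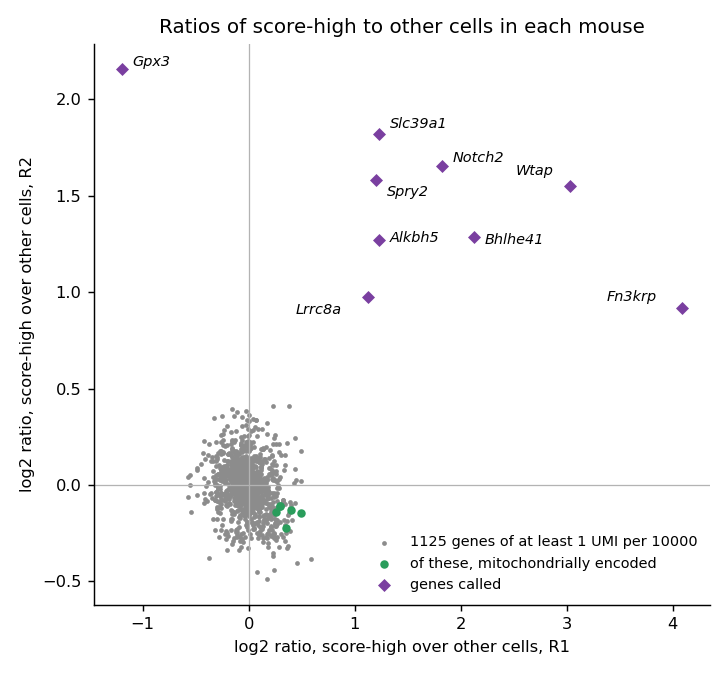
log2 ratio of score-high to other cells in R1 (horizontal axis) and R2 (vertical axis) for 1125 genes with at least 1 UMI per 10000 in all 4 sums (grey, with mitochondrially encoded genes in green) and for the 9 called genes (purple diamonds), which have lower counts. The grey cloud has a Pearson's r of -0.21. The called genes were chosen by the test on the same 4 sums, so their place in the plot is no separate evidence.

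The score-high cells were not the cells chosen in the same way by 2 other groups of transcripts that vary among RPE cells. Of the score-high cells, 49 (12.9%) in R1 and 72 (17.4%) in R2 were also in the top 15% for Serpine3, Wfikkn2 and Htr3a, and 53 (13.9%) and 65 (15.7%) in the top 15% for Igfbp2, Sostdc1 and Sfrp5. The groups being of equal size, these are also the shares of the other group, and 15.0% of all cells fell in each. Wfikkn2, an inhibitor of growth and differentiation factors, was at 1.60 and 1.64 UMIs per 10000 in score-high and other cells of R1 and at 1.23 and 1.25 in R2. Serpine3 was at 0.746 and 1.47 in R1 but at 1.18 and 1.13 in R2. It was called lower with members chosen within deciles of depth (log2 fold change -0.86) and with the top 20% as members (-0.65). Igfbp2, an insulin-like growth factor carrier, was at 2.61 and 2.90 in R1 and at 2.46 and 2.42 in R2. Of the 3 genes of each group, 0 were called by edgeR (1 and 0 at an unadjusted p under 0.05). With 9 of all 9899 genes called (0.0909%), this is near the background and nothing is read from it.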

How the data were processed

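Single RPE cells of 2 mice were sequenced on a droplet platform, for which the study and the labels name different chemistry versions. The authors aligned reads to GRCm38 and deposited raw UMI counts for every gene in each cell. No scaling and no removal of ambient RNA or doublets preceded the deposit. The files hold slightly more cells of R2 than the study states. The submitters' processing notes name Cell Ranger 1.2.0 and bcl2fastq 2.20.0.422. The members and lists were chosen with earlier results of these data known.

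Each cell was thinned at random to 3000 UMIs (seed 1), and thinned counts were summed per mouse over score-high and other cells. The 4 sums were tested in R 4.3.3 with edgeR 4.0.16 (TMM, filterByExpr, quasi-likelihood test, Benjamini-Hochberg adjustment, false discovery rate of 0.05). Both sums of a mouse come from the same animal, so the mouse entered as a block. The score genes were left out of the test. Standard errors are the fold change over the root of F. DESeq2 1.42.0, edgeR without TMM or filter, no block, no thinning, another draw, other limits, depth-matched members, Ttr out of the scaling, and scores without 1 gene were the alternatives. A doublet score was made with scikit-learn 1.9.0 from artificial doublets, and its top 4% were kept in the comparison and removed in an alternative. P-values rest on a spread borrowed across genes, with 1 residual degree of freedom, and do not measure each gene's own spread between these 2 mice. Counting intervals (exact Poisson, Clopper-Pearson, and conditional binomial for ratios) cover counting error only. With 1140000 to 7026000 thinned UMIs per sum, genes of a few UMIs have wide intervals.

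Results of 1 marker list are not reported here. Named genes were, by rule, the 15 highest and 15 lowest called genes with the same direction in both mice and at least 0.5 UMIs per 10000, together with members of the fixed lists. Coordinates are those of GENCODE M21 on GRCm38.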

Additional observations from a re-analysis of the deposited data

How the results depend on the processing

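Of 18 alternatives, 14 gave a count of called genes within 1.5 times of 9, from 6 to 10. These counts take both directions together and include genes outside the 9. With members chosen within deciles of depth, 7 genes were called, of which 4 were among the 9 and 3 were lower. With the top 10% as members edgeR called 5 genes, all of them among the 9. Among cells of at most 10000 UMIs, an alternative chosen after seeing the data, it called 3 (Bhlhe41 and Notch2 higher, Pmel lower). Without the replicate block it called 0, with 226 genes at an unadjusted p under 0.05, and the cause was not tested. DESeq2 called 1, Bhlhe41. Bhlhe41 was called in 17 of the 18, Notch2 in 16, Alkbh5 and Slc39a1 in 15, Lrrc8a in 14, Spry2 in 13, Wtap in 11, Fn3krp in 10 and Gpx3 in 7, none with the opposite sign. The log2 fold change of Bhlhe41 ranged from 1.04 to 1.87, the lowest with members chosen within deciles of depth. Scores from thinned cells and removal of microglia-marked cells, both chosen after seeing the data, each gave the same 9 genes. The cells themselves were less stable. Scores from thinned cells kept 62.1% of the members of R1 and 74.8% of those of R2. The choice within deciles of depth kept 78.4% and 64.4%. Leaving out a mouse left no residual degrees of freedom and thus no test. Without replicate 2, Gpx3 had a log2 ratio of -1.20, and without replicate 1 one of 2.15. With 1 to 3 UMIs in a sum, as for Gpx3 in R1, no direction can be read at this depth.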

Other observations

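Genes that passed the test only under an alternative were the following, named after their values were seen. With members chosen within deciles of depth, Serpine3, a serpin family member, was lower (log2 fold change -0.86), as were Pmel, the amyloid scaffold protein of melanosomes (-1.09), and Sult1c1, a cytosolic sulfotransferase (-0.56). Without the matching, Serpine3 was at 0.746 UMIs per 10000 in score-high and 1.47 in other cells of R1 but at 1.18 and 1.13 in R2, and Pmel was at 0.632 and 0.615 in R1 and at 0.153 and 0.233 in R2. Serpine3 was also lower with the top 20% as members (-0.65), and Pmel among cells of at most 10000 UMIs (-1.50). By depth, Serpine3 in R1 was at 1.56 and 3.58 in cells of 3000 to 5000 UMIs, 0.586 and 1.73 in cells of 5000 to 10000, and 0.128 and 0.589 in deeper cells. In R2 it went the other way in cells of 3000 to 5000 UMIs, at 1.50 and 1.22, which hold 222 of the 413 score-high cells, and was at 0.859 and 1.95 and at 0.476 and 0.661 in the deeper bands.

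Cd74, the invariant chain of antigen presentation, was called higher without thinning (log2 fold change 4.08) and without the filter on low counts (4.24). In thinned cells it had 33 UMIs in score-high and 5 in other cells of R1, and 2 and 3 in R2. Both settings kept the 2 score-high cells of R1 that held microglia or macrophage markers, and their part in Cd74 was not tested. Plvap, an endothelial diaphragm protein (1.50), and Bmp2k, a kinase (1.65), were called higher with Gnb1 left out of the score, and Kifap3, a kinesin adaptor (-1.84), lower with Zfp691 left out.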
